A study of Bos taurus with 8 samples.

Results

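The miRNAs bta-miR-122, bta-miR-192, bta-miR-194, bta-miR-215 and bta-miR-885, known from liver or intestine, were followed in extracellular vesicles (EVs) of bovine follicular fluid (FF). They were chosen by name, and all 5 stood among the 1028 rows of the deposited miRNA table. Of these rows 545 were above 0 in at least 1 library and 243 had a mean above 10 CPM, the unit of the table (reads of a miRNA scaled to a common library size). Of the 5 miRNAs, 4 passed that mean, and bta-miR-885 did not. The FF came from cycling, non-pregnant Bos taurus crossbred beef cows, aspirated by ovum pick-up in summer (SUM, August, 4 libraries) and in winter (WIN, 4 libraries), and each library was a pool of 2 cows. In both seasons the cows carried a progesterone insert and received a GnRH analog and FSH, so every library describes stimulated follicles. The same cows were aspirated in both seasons, but the cows that made up each pool are not named. Whether pools of the 2 seasons match is thus not known, and the tests treat the 8 libraries as unrelated. The pools limit n to 4 in each season, p-values measure the spread between pools, and season cannot be told apart from the aspiration session.

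Follicular fluid forms in part from plasma that crosses the wall of the follicle, and miRNAs of distant organs circulate in plasma in vesicles, with proteins and with lipoproteins. miR-122 is the dominant miRNA of hepatocytes in mammals and is used in plasma as a sign of liver injury. miR-192, miR-194 and miR-215 are abundant in intestinal epithelium, liver and kidney, and in human cells they are induced by p53. In human, miR-192 and miR-215 share their seed, the bases that pair with targets, and most of their remaining bases, so the counting could split their reads and the level of each carries that uncertainty. miR-885 is known from human liver and plasma. The libraries measure all EVs of the fluid at once, so fewer vesicles from an organ and fewer copies per vesicle cannot be told apart.

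In the RefSeq annotation of the ARS-UCD2.0 assembly, which is newer than the assembly of the study, the 5 miRNAs matched 6 precursor genes. MIR215 neighbours MIR194-1 inside IARS2, the gene of a mitochondrial isoleucyl-tRNA synthetase. MIR192 neighbours MIR194-2 inside EHD1, the gene of a protein of endosome recycling. Mature miR-194 can come from either precursor, and its reads do not tell which. MIR885 lies inside ATP2B2, the gene of a plasma membrane calcium pump, while MIR122 lies inside no protein-coding gene and has no other miRNA gene within 10 kb.

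The depth behind the values was 214004 to 1689467 miRNA reads per library, recovered from the deposited TMM-adjusted CPM, in which 1 read was worth 0.567 to 4.02 CPM. SUM replicate 3 and WIN replicate 1 had the fewest reads, 214004 and 235340, and the spread, correlations, ratios and season differences of the members are given with and without them. In marker miRNAs of the follicle, miR-202 of the gonads was at 3086 to 11850 CPM and thus present in every library. It was the most abundant of 5 granulosa cell miRNAs listed, of which 3 had a mean above 10 CPM. miR-224 and miR-132 were seen in 8 of 8 libraries, miR-383 in 7 and miR-212 in 5.

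Together the 5 miRNAs held 0.526% to 2.99% of the miRNA reads of a library. In replicates 1 to 4 the share was 0.621%, 0.526%, 2.09% and 0.947% for SUM, and 2.99%, 1.01%, 1.37% and 0.780% for WIN. The highest shares were those of WIN replicate 1 (95% exact binomial interval 2.92% to 3.06%) and SUM replicate 3 (2.03% to 2.15%). These are the 2 libraries with the fewest reads. The deepest library, WIN replicate 3, had the next highest share, 1.37% (1.35% to 1.39%). The intervals cover counting error only.

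By mean level over the 8 libraries the order was miR-122 (5043 CPM, place 27 among all miRNAs), miR-192 (4097 CPM, place 32), miR-215 (2704 CPM, place 37), miR-194 (499 CPM, place 74) and miR-885 (5.10 CPM, place 289). miR-122 and miR-192 did not hold a fixed order, since miR-122 was the higher in 4 of 8 libraries. miR-192 was above miR-215 in 6 of 8 libraries, and the exceptions were SUM replicate 3 and WIN replicate 1. miR-215 was above miR-194, and miR-194 above miR-885, in 8 of 8.

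miR-122 was nearly even across summer and high in a single winter library. SUM replicates 1 to 4 held 2730, 2775, 3085 and 3842 CPM, and WIN replicates 1 to 4 held 16943, 4335, 3940 and 2690 CPM. WIN replicate 1 stood far above the other 7 libraries, which spanned 2690 to 4335 CPM, and the seasons overlapped. The high value rested on 4425 reads, and miR-122 ranked 13 in that library against 28 to 38 in the others. In SUM the SD was 16.5% of the mean, where counting error alone gives 2.63%, and in WIN it was 95.8% against 1.99%. On the log2 scale the SD in SUM was 0.23, below the median of 0.53 over all tested miRNAs, and only 8.64% of them had a smaller one. In WIN it was 1.16 against a median of 0.47. The tested miRNAs reach down to a mean of 10 CPM, where counting error is larger, and were not matched to miR-122 in level. Without the 2 libraries with the fewest reads the SD of miR-122 was 20.2% of the mean in SUM and 23.5% in WIN (n = 3 each), and the range over 6 libraries was 1.61-fold.

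miR-192 was the steadier of the 3 related miRNAs, with 2661, 2752, 6308 and 4941 CPM across the SUM libraries and 4495, 3354, 4632 and 3633 CPM across the WIN libraries. SUM held both the lowest and the highest libraries, and the WIN values lay between them. The highest library was 2.37 times the lowest, and 1.86 times without the 2 libraries with the fewest reads.

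miR-215, the relative of miR-192 with the same seed, varied most. The SUM libraries held 1140, 697, 7297 and 1570 CPM, and the WIN libraries 4817, 1398, 3824 and 893 CPM. SUM replicate 3 and WIN replicates 1 and 3 were at 3824 CPM or more and the other 5 libraries at 1570 CPM or less, so that each season had low and high libraries. The highest was 10.5 times the lowest, and the SD in SUM was 116% of the mean, where counting error alone gives 3.48%. On the log2 scale 95.1% of the tested miRNAs had a smaller SD in SUM. This spread rested largely on SUM replicate 3: without the 2 libraries with the fewest reads the SD in SUM was 38.4% of the mean (n = 3), in WIN 76.9% (n = 3), and the range over 6 libraries was 5.49-fold.

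miR-194, the partner of both in their clusters, was less abundant, with 180, 207, 1311 and 376 CPM across the SUM libraries and 647, 218, 721 and 331 CPM across the WIN libraries. The same 3 libraries were highest as for miR-215. Its values rested on 86 to 1271 reads, and the highest library was 7.29 times the lowest, or 4.01 times without the 2 libraries with the fewest reads. The entries bta-miR-194b and bta-miR-194b-3p, annotated over the same places, were at 0 in every library, which allows up to 1.70 to 12.1 CPM (3 reads per library).

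bta-miR-885 was at the edge of detection. The SUM libraries held 5, 0, 0 and 9 of its reads (10.5, 0, 0 and 11.3 CPM), and the WIN libraries 1, 12, 0 and 0 (3.83, 15.2, 0 and 0 CPM). It was thus seen in 4 of 8 libraries, with 14 reads in SUM and 13 in WIN. The libraries at 0 allow up to 4.13 CPM (SUM replicate 2), 12.1 CPM (SUM replicate 3), 1.70 CPM (WIN replicate 3) and 5.20 CPM (WIN replicate 4), as 3 reads per library. A season difference did not pass the test (exact permutation test, two-sided, p = 1).

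**Figure D1:**
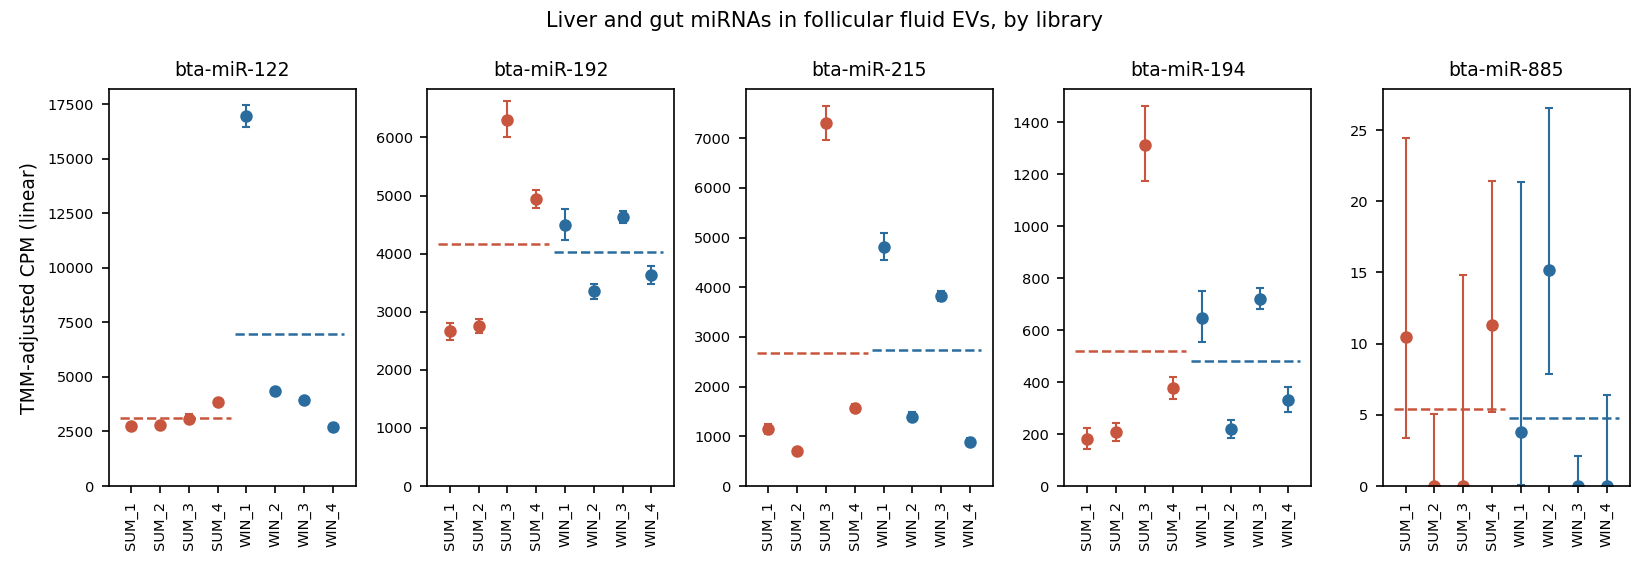
Level of each miRNA (TMM-adjusted CPM, linear axes with a scale of their own) in the 4 SUM (red) and 4 WIN (blue) libraries, with 95% Poisson intervals of the reads as bars and season means as dashed lines. bta-miR-122 is at 16943 CPM in WIN_1 alone, while bta-miR-215 and bta-miR-194 are highest in SUM_3, WIN_1 and WIN_3.

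miR-192, miR-194 and miR-215 rose and fell together over the libraries, and the r of miR-122 with each of them did not pass the test. Agreement was measured on log2(CPM + 1) over 8 libraries for the 6 pairs of the 4 tested miRNAs, with exact permutation p-values adjusted over the 6. miR-192 and miR-194 had a Pearson r of 0.92 (exact permutation p = 0.0013, adjusted p = 0.0067) and a Spearman rho of 0.93 (exact p = 0.0022, adjusted p = 0.013). miR-194 and miR-215 had an r of 0.92 (exact p = 0.0022, adjusted p = 0.0067) and a rho of 0.86 (exact p = 0.011, adjusted p = 0.032). miR-192 and miR-215 had an r of 0.83 (exact p = 0.013, adjusted p = 0.026) and a rho of 0.79 (exact p = 0.028, adjusted p = 0.056). Over all 29403 pairs of tested miRNAs the median r was 0.04 (quartiles -0.30 and 0.37), and 0.316%, 0.361% and 2.00% of the pairs reached the r of these 3. The counting could split reads between miR-192 and miR-215, and the part of this in their r was not tested.

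miR-122 had an r of 0.28 with miR-192 (exact p = 0.54, adjusted p = 0.54), 0.32 with miR-194 (exact p = 0.48, adjusted p = 0.54) and 0.50 with miR-215 (exact p = 0.20, adjusted p = 0.30). The rho values were 0.33, 0.43 and 0.62 (exact p = 0.43, 0.30 and 0.11, adjusted p = 0.43, 0.36 and 0.17). Of all pairs, 16.4% to 31.5% reached these r. Without SUM replicate 3, miR-122 and miR-215 gave an r of 0.79 (exact permutation test, adjusted p = 0.036).

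The agreement rested partly on the libraries at the ends. Without the 2 libraries farthest from the median of the first miRNA of the pair, r was 0.82 for miR-192 and miR-194 (n = 6, exact p = 0.064), 0.80 for miR-194 and miR-215 (n = 6, exact p = 0.054) and 0.75 for miR-192 and miR-215 (n = 6, exact p = 0.10), none of them past 0.05. For miR-122 with miR-192, miR-194 and miR-215 it was 0.37, 0.16 and 0.22 (n = 6, exact p = 0.45, 0.73 and 0.63). Without the 2 libraries with the fewest reads, the 3 related pairs gave 0.86, 0.81 and 0.70 (n = 6, exact test, adjusted p = 0.11, 0.16 and 0.16). In those 6 libraries miR-122 gave 0.63 with miR-192, 0.43 with miR-194 and 0.70 with miR-215 (n = 6, exact test, adjusted p = 0.24, 0.43 and 0.16), so that its r with miR-215 was as high as that of miR-192 with miR-215. Whether the r of miR-122 differs from those among the related miRNAs was not tested. miR-215 left a gap between its 3 high and 5 low libraries, and each side was too small for an r of its own. With each value centred on its season mean the 3 pairs gave 0.92, 0.92 and 0.83. Within a season 4 libraries were too few for an r.

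**Figure D2:**
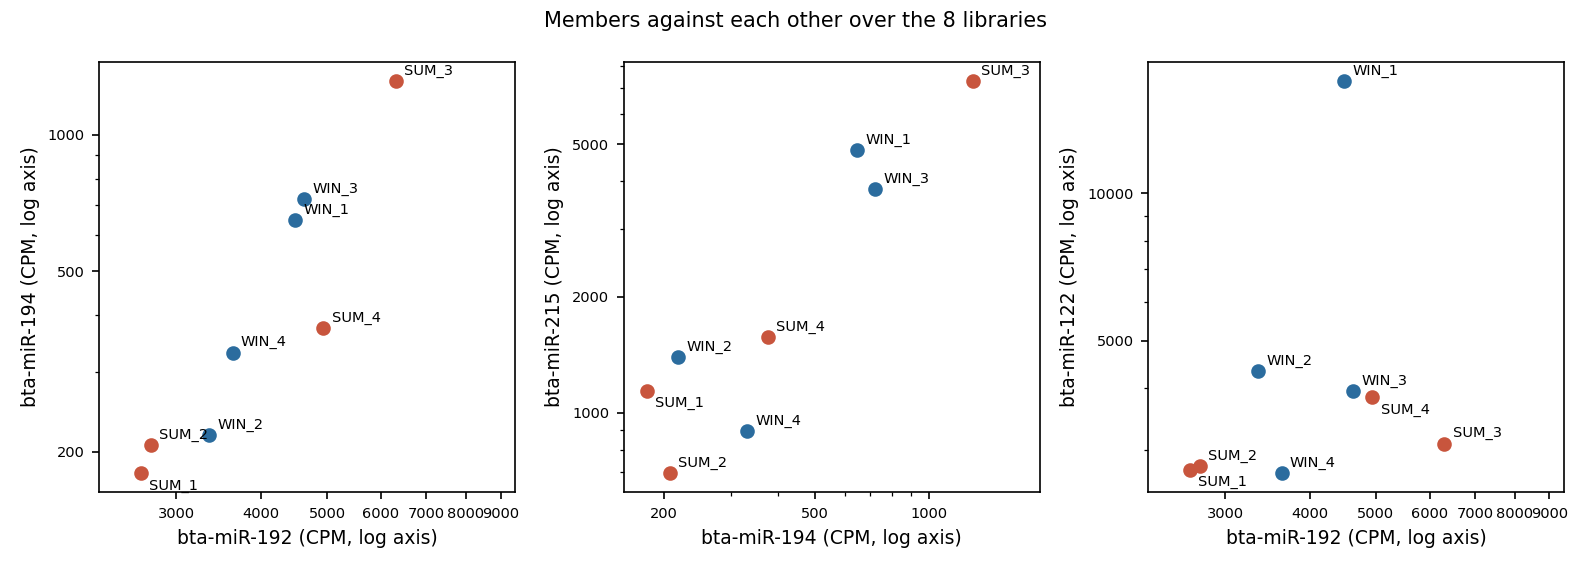
Levels of pairs of miRNAs (TMM-adjusted CPM, log axes), 1 point per library, SUM in red and WIN in blue. miR-194 climbs with miR-192 (r of 0.92) and miR-215 with miR-194 (r of 0.92), while in the plot of miR-122 against miR-192 (r of 0.28) WIN_1 lies alone at the top and SUM_3 at the right.

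Among the 243 tested miRNAs, those most like each member were listed by r over the 8 libraries, as a description. For miR-194 they were miR-192, miR-215 and miR-30b-5p (0.85), and for miR-192 they were miR-194, miR-30b-5p (0.85) and miR-215. For miR-215 they were miR-194, miR-371 (0.91) and miR-9-5p (0.89). The related miRNAs thus stood within each other's 3 nearest, except that miR-192 was not among those of miR-215. For miR-122 they were miR-127 (0.95), miR-149-5p (0.80) and miR-411a (0.79), none of them a relative. miR-127, of the imprinted DLK1-DIO3 cluster, was at 739 CPM in WIN replicate 1 and at 280 to 443 CPM in the other 7 libraries, so WIN replicate 1 was the highest for both. miR-371 was at 905 CPM in SUM replicate 3 and 1126 CPM in WIN replicate 1, against 103 to 324 CPM elsewhere.

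Ratios within a library do not depend on the scaling between libraries, and none of the 4 passed the test between seasons. miR-122 to miR-192 was 1.03, 1.01, 0.489 and 0.778 across SUM replicates 1 to 4, against 3.77, 1.29, 0.851 and 0.740 across WIN. The mean log2 ratio was -0.34 ± 0.50 for SUM against 0.40 ± 1.06 for WIN (SD over 4 libraries a season, two-sided exact permutation p = 0.29). Without the 2 libraries with the fewest reads the difference shrank from -0.74 to -0.01 (exact permutation test, p = 1).

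miR-192 to miR-215 was 2.33, 3.95, 0.864 and 3.15 across SUM, against 0.933, 2.40, 1.21 and 4.07 across WIN. The log2 means were 1.16 ± 0.97 and 0.87 ± 0.96 (SD over 4 libraries a season, exact permutation p = 0.80). The ratio was lowest in the 3 libraries where miR-215 was highest. miR-215 is its denominator and varied more than miR-192, so this adds no separate evidence. The ratio covered a 4.71-fold range, so the 2 relatives did not keep a fixed proportion. miR-192 to miR-194 ran from 4.81 to 14.8 in SUM and from 6.42 to 15.4 in WIN, with log2 means of 3.40 ± 0.76 and 3.22 ± 0.59 (SD over 4 libraries a season, exact permutation p = 0.80). miR-215 to miR-194 spanned the least, 2.76-fold, near the 3.20-fold of miR-192 to miR-194. The ratio of miR-215 to miR-194 ran from 3.37 to 6.34 in SUM and 2.70 to 7.44 in WIN (exact permutation test, p = 0.77). Without the 2 libraries with the fewest reads the log2 differences of these 3 ratios moved from 0.30, 0.18 and -0.11 to 0.43, 0.42 and -0.01 (exact permutation test, n = 3 each, p = 0.70, 0.40 and 0.90), and 3 against 3 cannot pass 0.05. Over all 8 libraries, adjusted over the 4 ratios each p was 0.80.

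**Figure D3:**
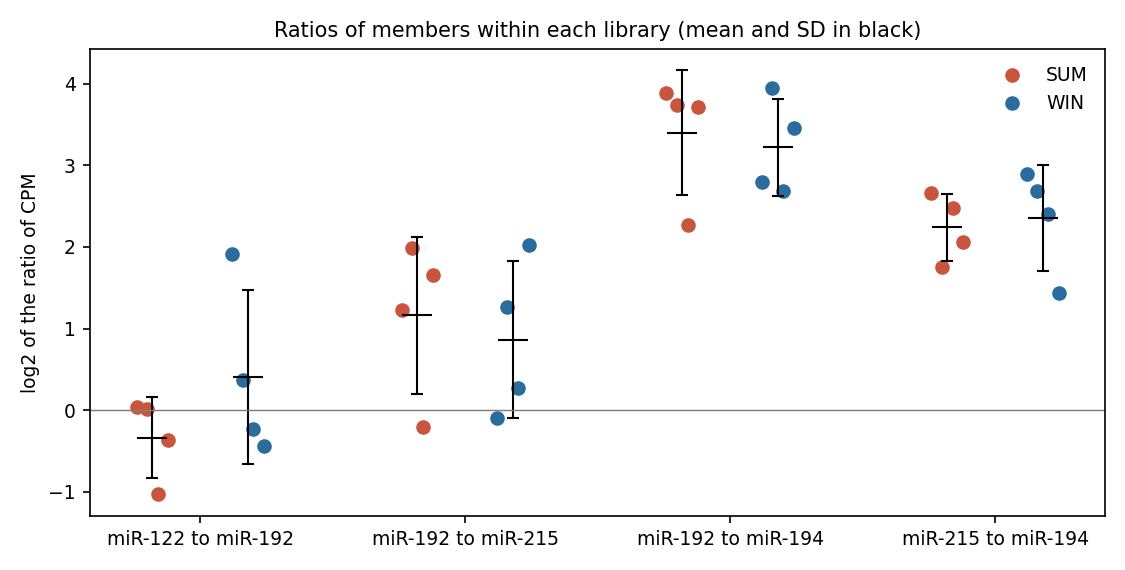
Log2 of the ratio of CPM of 2 miRNAs in each library (points, SUM red, WIN blue), with season means and SD (n = 4) in black; 0 marks equal levels. The seasons overlap in all 4 ratios, and WIN replicate 1 lies highest for miR-122 to miR-192.

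Between the seasons none of the 4 tested miRNAs was called. limma was fitted on log2(CPM + 1) of all 243 tested miRNAs, and a call needed both more than a 1.5-fold difference and an adjusted p under 0.1. Of the 243, 5.35% were called higher and 2.47% lower in SUM, and of the members none was called in either direction. None of the 4 had an unadjusted p below 0.05, which 54 of the 243 had. The libraries of the seasons overlapped for all 4, while 16.0% of the 243 did not overlap. The 4 log2 fold changes were negative with a median of -0.28, against a median of 0.02 over all tested, of which 48.6% were negative. The means in CPM gave no common direction, since SUM was the higher for miR-192 and miR-194 and the lower for miR-122 and miR-215.

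The mean of miR-122 was 3108 ± 514 CPM over SUM against 6977 ± 6681 CPM over WIN (SD over 4 libraries a season, two-sided exact permutation p = 0.17). The log2 fold change was -0.78 (standard error 0.47, 95% interval -1.81 to 0.26, adjusted p = 0.33 from limma). Without WIN replicate 1 it was -0.22 (adjusted p = 0.66 from limma). DESeq2 on the recovered reads of all 8 libraries gave -1.22 and called it (adjusted p = 0.091, the lowest of 0.091 to 0.66 over 18 alternatives), and edgeR gave -1.19 without a call (adjusted p = 0.18).

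The means of miR-192 were 4165 ± 1775 CPM for SUM against 4028 ± 631 CPM for WIN (SD over 4 libraries a season, exact permutation p = 0.94). Its log2 fold change of -0.04 had a standard error of 0.31 and an interval of -0.72 to 0.64 (adjusted p = 0.96 from limma). miR-194 had means of 518 ± 536 CPM and 479 ± 243 CPM (SD over 4 libraries a season, exact permutation p = 0.91) and a log2 fold change of -0.22 with an interval of -1.53 to 1.09. miR-215 had means of 2676 ± 3101 CPM and 2733 ± 1889 CPM (SD over 4 libraries a season, exact permutation p = 0.94) and a log2 fold change of -0.33 with an interval of -1.88 to 1.22. The adjusted p was 0.89 for miR-194 and 0.84 for miR-215 (limma). The signs of miR-192, miR-194 and miR-215 turned positive with edgeR and DESeq2 on the recovered reads. The intervals of miR-194 and miR-215 include a 2-fold change in either direction, so a change of that size was not excluded. That of miR-122, -1.81 to 0.26, includes a 2-fold decrease. Without SUM replicate 3 the log2 fold change was -0.83 for miR-194 and -1.02 for miR-215 (adjusted p = 0.27 for both, limma). Without the 2 libraries with the fewest reads it was -0.22 for miR-122, -0.21 for miR-192, -0.63 for miR-194 and -0.64 for miR-215 (adjusted p = 0.61, 0.65, 0.37 and 0.41, limma).

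**Figure D4:**
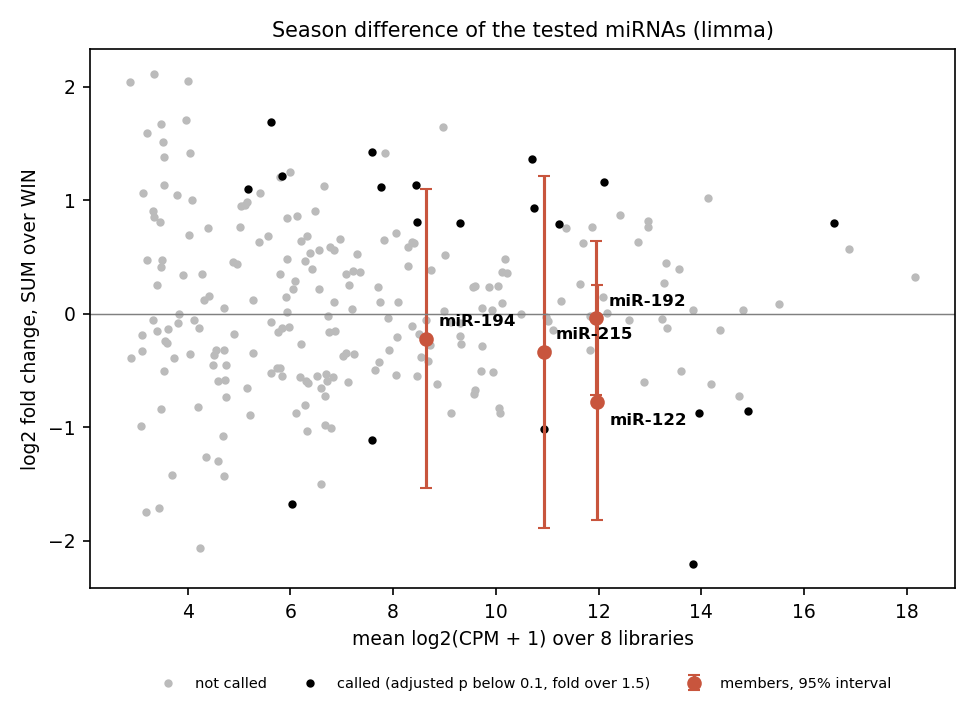
Log2 fold change of SUM over WIN (limma) against the mean log2(CPM + 1) for the 243 tested miRNAs, grey where not called and black where called. The 4 members (red, with 95% intervals) all have intervals that span 0, from -0.78 for miR-122 to -0.04 for miR-192.

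Other miRNAs known from liver, gut or pancreas were set beside the members. Of 12 listed, 11 had a row, 10 were detected and 7 were tested. None of the 7 was called, where 5.35% of all tested were called higher and 2.47% lower, so that a count of 0 among 7 does not set them apart. miR-147, named after its values were seen, was low and lay higher in each SUM library, at 25.1, 20.7, 40.2 and 47.7 CPM, than in WIN, at 11.5, 0, 17.6 and 15.6 CPM. Its log2 fold change was 2.05 (standard error 0.88, unadjusted p = 0.040, adjusted p = 0.20 from limma). That is 4.14-fold, while the means were 33.4 CPM for SUM and 11.2 CPM for WIN. The 0 in WIN replicate 2 weighs heavily on the log2 scale. Of all tested miRNAs, 16.0% likewise had seasons that did not overlap. The most abundant was miR-375, of pancreatic islets and gut endocrine cells, with 2291, 2175, 740 and 3047 CPM across the SUM libraries and 1643, 1195, 4327 and 3224 CPM across the WIN libraries. SUM replicate 3, where miR-192, miR-194 and miR-215 were highest, had the lowest miR-375. Others of the list went both ways in that library. miR-31 (60.3 CPM) and miR-196a (12.1 CPM) were also at their lowest. miR-483, not tested for its low mean, was at its highest (28.2 CPM), and miR-455-3p was highest of its season (36.2 CPM). The log2 fold change of miR-375 was -0.32 (standard error 0.49, adjusted p = 0.76 from limma). miR-216a and miR-216b of the exocrine pancreas were seen in 1 library each, and miR-217 was at 0 in all 8.

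miRNAs of blood cells were present beside the members, and 1 of them shared the high library of miR-122. miR-451, the main miRNA of red blood cells, held 4002, 2452, 3041 and 5748 CPM across the SUM libraries and 18773, 1031, 5742 and 1631 CPM across the WIN libraries. WIN replicate 1 was thus far above all other libraries for both miR-122 and miR-451. miR-486, the other abundant red cell miRNA, was at 7145 CPM there, within its range of 1394 to 8251 CPM elsewhere, and miR-144 was at 0 there and at up to 13.9 CPM elsewhere. The 3 red cell miRNAs summed to 5262 to 12731 CPM over SUM and to 2439 to 25918 CPM over WIN, with the maximum in WIN replicate 1. In SUM replicate 3, where miR-215 was highest, they summed to 5262 CPM, the lowest of that season. The part of red cells in these results was not tested.

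Markers of other cells were high in some and low in others of the libraries that stood apart. The 5 white blood cell miRNAs summed to 728 to 1167 CPM over SUM and to 528 to 777 CPM over WIN, and WIN replicate 1 was the lowest of all 8 libraries. miR-142-5p and miR-155 made up most of that sum. In WIN replicate 1 miR-155 was at its lowest, 230 CPM, while miR-142-5p (260 CPM) and miR-223 (15.3 CPM) were not. The 2 endothelial miRNAs, the arms of miR-126, summed to 1065 to 2418 CPM and 2290 to 3595 CPM, with WIN replicate 1 the lowest of its season and SUM replicate 3 the highest of its own. The 5 granulosa cell miRNAs summed to 6456 to 13447 CPM and 4028 to 6702 CPM, with SUM replicate 3 and WIN replicate 1 each the lowest of their season. miR-202 and miR-224 made up most of that sum, and both were lowest of their season in these 2 libraries. The less abundant ones did not all follow. miR-132 was highest of its season in WIN replicate 1 (72.7 CPM). miR-383 was at 12.1 CPM in SUM replicate 3, within 3.77 to 18.8 CPM over SUM. Of the 7 striated muscle miRNAs 3 were at 0 in every library, namely miR-133b, miR-208a and miR-208b, and the sum was 837 to 1021 CPM and 1095 to 1482 CPM, highest in WIN replicate 1. miR-1, which also occurs in other tissues, made up most of that sum and was itself highest in WIN replicate 1 (1424 CPM). The less abundant ones did not follow it there. In WIN replicate 1 miR-499 was at its lowest (30.6 CPM), miR-206 was lowest of its season (26.8 CPM) and miR-133a was at 0. Whether any of these sources contributed to the levels of the liver and gut miRNAs was not tested.

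**Figure D5:**
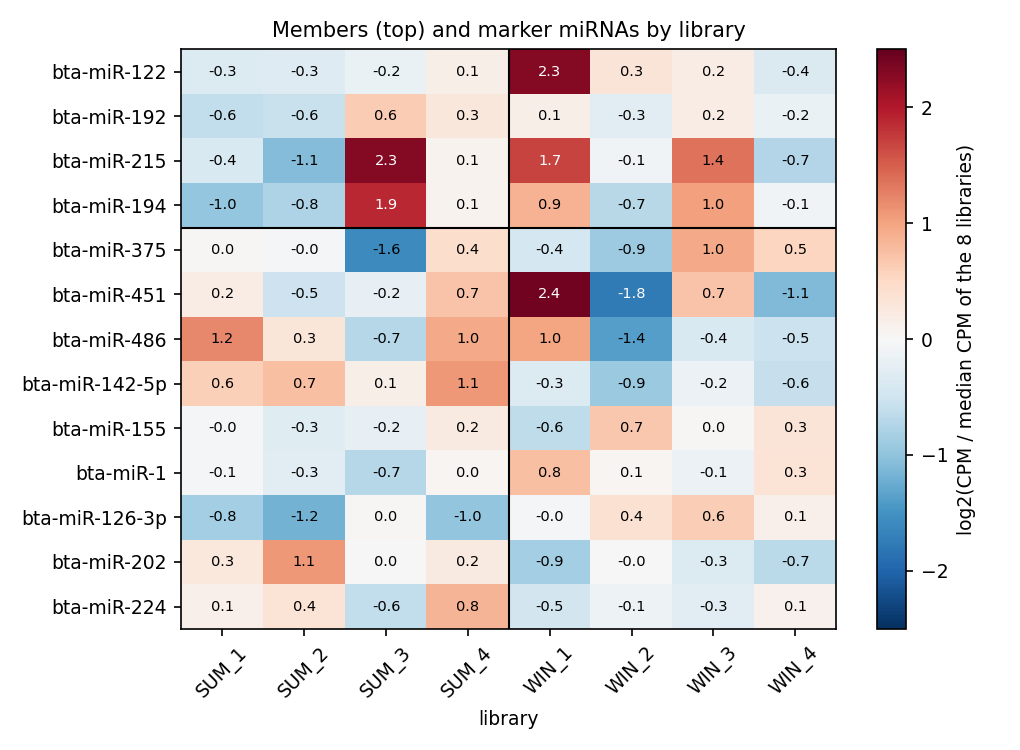
Level of the 4 tested members (above the line) and of the most abundant marker miRNAs of other sources in each library, as log2 of CPM over the median CPM of the 8 libraries. miR-122 and miR-451 share their high value in WIN_1, and miR-215 and miR-194 are high in SUM_3, WIN_1 and WIN_3.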

How the data were processed

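Small-RNA libraries of FF EVs (4 SUM, 4 WIN) were sequenced by the authors, who trimmed the reads, annotated them against bovine miRBase entries with CLC Genomics Workbench after mapping to ARS-UCD1.2, and applied TMM normalization. The submitters' processing notes also name bcl2fastq, Bowtie2 2.2.2 and DESeq2. The authors deposited TMM-adjusted CPM, a signal whose columns sum to 860872 to 1222033. Dividing by the smallest value above 0 of a library gave whole reads for 100% of values (tolerance 0.001).

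The season test was limma 3.58.1 under R 4.3.3 (eBayes with trend, log2(CPM + 1), mean above 10 CPM, Benjamini-Hochberg). Fold changes on this scale understate changes of low miRNAs, but a single library at 0 can enlarge them. Single values, ratios and correlations used exact permutation tests (the smallest p for 4 against 4 is 0.029) in Python 3.11.15 with scipy 1.17.1. Alternatives included edgeR 4.0.16 and DESeq2 1.42.0 on recovered reads, other pseudocounts (0.5 and 10), filters and scaling, a replicate block and leaving out libraries. Leaving out the 2 shallowest libraries in the season and ratio tests and the spread, and single libraries in the correlations, was added after seeing the data. Scripts were tested on simulated data. The members and marker lists were chosen with earlier results of these data known. Named miRNAs are the members, list members by abundance and, for each tested member, the 3 most alike. miR-802 was not analysed here.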

Additional observations from a re-analysis of the deposited data

Results flagged for a closer look

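Sets of 4 values were checked in each season (members, ratios and summed lists), 30 in all. In 3 of them a single library lay apart from the other 3 by more than Dixon's 95% critical value. Chance gives about 1 in 20 for independent sets of normally distributed values. The sets here share miRNAs and libraries and hold linear CPM or ratios, so the count of 3 was not weighed against chance. bta-miR-122 in WIN replicate 1, at 16943 CPM, left a gap of 0.885 of the whole WIN range. bta-miR-215 in SUM replicate 3, at 7297 CPM, left a gap of 0.868 of the SUM range. The ratio of miR-192 to miR-194 in SUM was 4.81 in replicate 3, a gap of 0.836 of the SUM range, the other 3 libraries being at 13.2 to 14.8. Both libraries are those with the fewest miRNA reads, and the cause was not tested.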

How the results depend on the processing

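The members stayed uncalled under the 18 alternatives of the season test except miR-122 with DESeq2 (-1.22). The log2 fold changes of miR-192, miR-194 and miR-215 turned positive with edgeR (0.058, 0.16 and 0.057) and DESeq2 (0.053, 0.18 and 0.066). Leaving out 1 library gave -1.10 to -0.22 for miR-122, -0.27 to 0.14 for miR-192, -0.83 to 0.12 for miR-194 and -1.02 to 0.11 for miR-215. Of the 243 miRNAs 13 were called higher and 6 lower. The counts were 6 and 2 without a filter, 20 and 15 with edgeR, 23 and 22 with DESeq2, 1 and 0 at an adjusted p below 0.05, and 24 and 11 without the 2 shallowest libraries. Equal summed CPM gave 11 and 22 and moved the median log2 fold change from 0.02 to -0.17. Leaving out 1 library gave 0 to 23 and 0 to 7. With the replicate number as a block 10 were called lower, the higher count stayed within 1.5 times and no member was called. The deviations of same-numbered libraries correlated at -0.02, 0.30, 0.06 and 0.24, and those of differently numbered libraries at -0.32 to 0.26. These values do not settle whether the numbers mark pairs. The cows of each pool are not named, so the numbers were not taken as pairs. The correlations of miR-192 and miR-194 (0.86), miR-194 and miR-215 (0.81) and miR-192 and miR-215 (0.70) lost significance without the 2 shallowest libraries. Leaving out 1 library gave 0.87 to 0.98, 0.86 to 0.95 and 0.72 to 0.91, and the last pair missed the threshold without SUM replicate 2, SUM replicate 3 or WIN replicate 2. For miR-122 with miR-192, miR-194 and miR-215 it gave 0.17 to 0.51, 0.17 to 0.61 and 0.34 to 0.79. Leaving out 1 library, the log2 season differences of the ratios ran from -1.02 to -0.24 (miR-122 to miR-192), -0.026 to 0.75 (miR-192 to miR-215), 0.003 to 0.56 (miR-192 to miR-194) and -0.42 to 0.067 (miR-215 to miR-194), with no call. The cause of these shifts was not tested. The values of miR-885 rest on at most 12 reads in a library, and the deepest library had 0.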
